A study of Mus musculus with 4 samples.

Results

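Integrins are paired surface receptors of an alpha and a beta chain. The 9 chains described here, of 26 integrin chains and 35275 genes in the count table, were taken by name as those of thymocytes: the alpha chains Itgae, Itga4, Itgal, Itga6 and Itgav and the beta chains Itgb7, Itgb1, Itgb2 and Itgb3. Each symbol matched a single Ensembl gene, and all 9 reached 2 CPM (the count scaled to library size) in every library. RNA was sequenced from mouse thymocytes of the C57BL/6 strain, aged 6 to 8 weeks and untreated, in 4 libraries with 1 library per group. WT mice were Uba3F/F, a floxed genotype that the sample labels enter as wild type. KO mice were Uba3ΔT, entered as Uba3-/-. The Cre line behind the deletion is not named in the labels, nor is it said whether animals were pooled. The protein made from Uba3 takes part in activating NEDD8, which resembles ubiquitin and is attached to cullin ligases. In each genotype, cells were sorted as group 2 (TCRβint CD69hi) and group 3 (TCRβhi CD69hi), successive stages after the T cell receptor has been engaged in the thymus. The question taken from the design is how integrin transcripts differ with the genotype and between the stages.

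An integrin reaches the cell surface only as a pair, and the pair decides the ligand. Itgb7 pairs with Itgae to bind E-cadherin on epithelium and with Itga4 to bind MAdCAM-1. Itgb1 pairs with Itga4 to bind VCAM-1 and fibronectin, and with Itga6 to bind laminin. Itgal and Itgb2 form LFA-1, the receptor for ICAM proteins on T cells, and Itgav pairs with Itgb3 to bind vitronectin and other matrix proteins. Talin and kindlin bind the tails of beta chains and, with the GTPase RAP1, switch integrins to the state that binds ligand. Transcript counts report none of these binding states.

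The libraries held between 8043077 and 10299863 counts. The cell type field of the labels puts both WT libraries in group 2 and both KO libraries in group 3, against the titles, which were followed. Under the titles, 4 of 5 genes of later thymocytes rose from group 2 to group 3, Ccr7 by 1.75 on the log2 scale (SE 0.14; edgeR, adjusted p 1.58e-30). DESeq2 called 3 of these 5 genes, and 2.21% of all measured genes rose with stage in edgeR. The thymocyte genes Cd3e, Cd3g, Cd4, Cd8a, Cd8b1, Lck, Rag1 and Cd69 each had between 1454 and 40427 counts in every library. Uba3 went against its label, with 453 and 356 counts in WT groups 2 and 3 and 647 and 856 in the libraries labelled KO (log2 fold 0.90, SE 0.17; edgeR, adjusted p 2.65e-05), so KO below means the library labelled so. A count over a whole gene does not show which exons were kept. Where the text says that a gene rose or fell, it passed an adjusted p of 0.05 in edgeR's quasi-likelihood test of a model with sorted group and genotype. That model has 1 residual degree of freedom, the part of an effect that differs between the other factor's levels, so its p-values do not measure the spread between mice. Ratios of 2 libraries have no replicate check, and their 95% intervals cover counting error only. In each comparison of libraries these intervals lay above 1 for 23.8% to 27.3% of measured genes, and below 1 for 23.7% to 25.8%.

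Promoters of 4 of the 9 chains were listed in the RefSeq set used here (GRCm38.p6): Itgb7, Itga4, Itgb1 and Itgav. Those of Itgb7 and Itga4 are printed, since their products pair and, as given below, 1 of these transcripts rose with stage and the other did not pass the test. Each window runs from 250 bases before to 50 after the start of transcription, 5′ to 3′, that of Itgb7 at chr15:102231886-102232185 on the minus strand and that of Itga4 at chr2:79255176-79255475 on the plus strand. Capitals mark the letters TGTGGT (Runx core), CACCC (bound by Klf and Sp factors) or CAGAC (Smad), on either strand.
Itgb7: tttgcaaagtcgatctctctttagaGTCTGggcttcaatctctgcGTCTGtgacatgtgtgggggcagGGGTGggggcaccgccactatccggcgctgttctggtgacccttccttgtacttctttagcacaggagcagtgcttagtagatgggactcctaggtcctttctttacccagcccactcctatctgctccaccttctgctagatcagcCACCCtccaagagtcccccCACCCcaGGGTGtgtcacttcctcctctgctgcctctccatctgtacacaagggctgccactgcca
Itga4: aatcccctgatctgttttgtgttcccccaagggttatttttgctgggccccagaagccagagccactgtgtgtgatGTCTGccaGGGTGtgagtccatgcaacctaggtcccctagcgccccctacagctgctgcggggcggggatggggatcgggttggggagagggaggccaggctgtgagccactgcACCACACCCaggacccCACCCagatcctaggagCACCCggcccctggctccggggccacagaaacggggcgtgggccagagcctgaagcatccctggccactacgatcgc
The Itgb7 window held 4 matches to CACCC, at positions -182, -35, -16 and -9 from the start, 2 to CAGAC and 0 to TGTGGT. The Itga4 window held 4, 1 and 1. Its TGTGGT match, on the minus strand at -60, overlaps a CACCC match at -56. Among 32851 promoter windows of the same length, 16.8% held TGTGGT, 57.5% CACCC and 49.6% CAGAC. Each of the 3 words is thus common, and a match describes letters in a window and no bound site.

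Levels were compared between chains in RPKM, which divides by gene length. Itgb2 had the highest level in every library, with 260 RPKM in WT group 2, 366 in WT group 3, 271 in KO group 2 and 404 in KO group 3. It stood above 96.2% to 98.0% of the 12490 measured genes. Itgb1 (77.5 to 108 RPKM), Itgb7 (54.3 to 101) and Itgal (59.4 to 67.2) came next and exchanged places between libraries. Below them, Itga4 (20.6 to 26.4), Itga6 (18.7 to 25) and Itgav (10.4 to 12.5) kept this order in all 4 libraries, with Itga4 and Itga6 close to each other in WT group 2 (26.4 and 25). Itgb3 (1.30 to 6.09) and Itgae (0.996 to 3.18) were the lowest, and Itgae was above Itgb3 in WT group 2 alone. The lengths implied by the deposited RPKM were shorter than the merged exons of the annotation for all 9 chains, for Itga4 3670 against 13978 bases. Per merged exon length, Itgb2 was again highest and Itgb7 second in both group 3 libraries, while Itgal was second in both group 2 libraries and Itgav changed places with Itgae or Itgb3 in all but KO group 2.

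**Figure D1:**
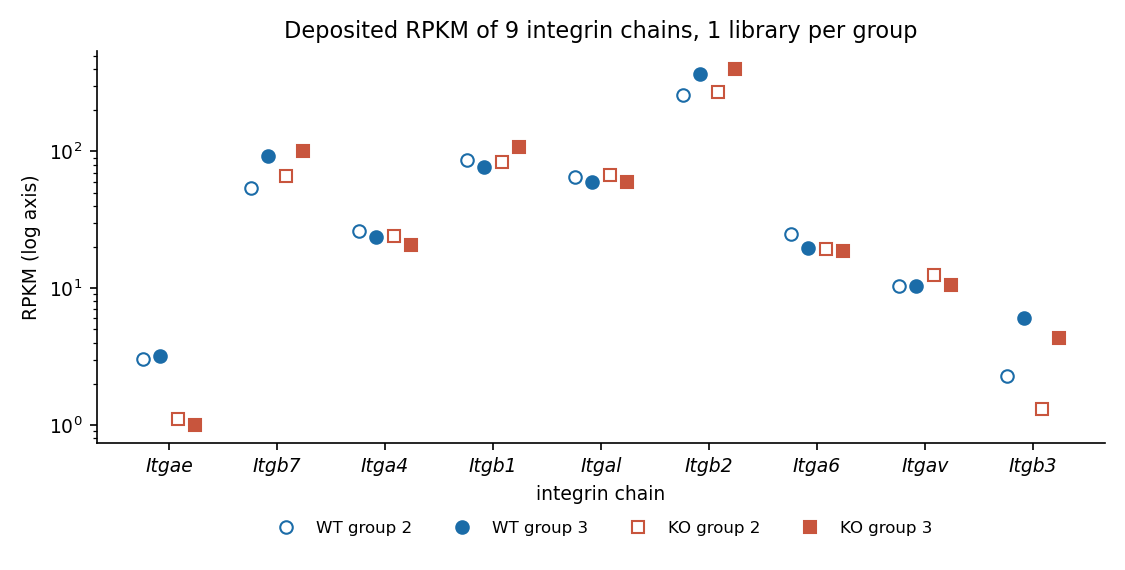
RPKM (log axis) of each chain in WT (circles) and KO (squares) libraries of group 2 (open) and group 3 (filled), with 1 library per point. Itgb2 lies highest throughout at 260 to 404 RPKM, Itgae separates by genotype and Itgb3 by sorted group.

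Itgae, the alpha chain known as CD103 (ENSMUSG00000005947), was the chain that differed most with genotype. It had 11.3 CPM in WT group 2 and 12 in WT group 3, against 4.30 in KO group 2 and 3.89 in KO group 3, from 119, 98, 38 and 37 counts. Both WT libraries lay above both KO libraries. The KO to WT ratio was 0.380 in group 2 (95% interval 0.256 to 0.551) and 0.323 in group 3 (0.215 to 0.476). Over both sorted groups Itgae fell by 1.51 on the log2 scale (SE 0.37; edgeR, adjusted p 0.00268), lower in 2 of 2 pairs. Of the 9 chains it was the 1 that fell, where 1.87% of 12490 genes did. No chain rose with genotype, where 2.95% of genes did (0 at an unadjusted p under 0.05, 0 with DESeq2). Itgae was also the only chain past 2-fold with an interval excluding 1 in either sorted group. By that rule 2.44% of genes were lower and 6.45% higher in group 2, and 5.60% and 2.17% in group 3. Between the sorted groups Itgae had a ratio of 1.06 in WT (0.803 to 1.40) and 0.903 in KO (0.558 to 1.46).

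The Itgae call was lost with DESeq2 (adjusted p 0.242), without sorted group in the edgeR model (0.14) and with any 1 library left out (0.14 to 0.326), though the fitted fold stayed between -1.58 and -1.44 with a library left out. The call held in the other 7 alternatives, with adjusted p between 0.00157 and 0.0365. Haspin, a mitotic kinase gene, lies inside Itgae (chromosome 11, 73090583 to 73147446 in mm10) on the opposite strand without sharing exon bases, and had 242, 213, 160 and 161 counts in WT groups 2 and 3 and KO groups 2 and 3. Its fitted genotype fold was -0.49 (SE 0.23; edgeR, adjusted p 0.318). Of the 21 other measured genes within 1 Mb of Itgae, 2 fell and 1 rose. These 3, looked up after the values were seen, are Cyb5d2 (-1.21, SE 0.33), the ATP-gated channel gene P2rx1 (-0.78, SE 0.21) and the interferon-induced Xaf1 (0.85, SE 0.18). The part of this neighbourhood in the Itgae difference was not tested.

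Itgae is known to be expressed by regulatory T cells, and by other T cells under TGF-beta and Runx3. Summed over 6 regulatory T cell genes, the level was 410 and 295 CPM in WT groups 2 and 3 and 259 and 190 in KO. Of the 6, 2 fell with genotype, where 1.87% of all measured genes did. Ikzf2 alone held 305, 113, 181 and 66.8 CPM of these sums, in the order WT groups 2 and 3 and KO groups 2 and 3, so the order of the sums is mostly that of 1 gene. The genes that fell were Ikzf2, which encodes a zinc finger factor (-0.76, SE 0.15), and Tnfrsf4, the costimulatory receptor OX40 (-1.14, SE 0.19). The fitted genotype folds of Il2ra (0.01) and Ctla4 (-0.06) did not pass. Foxp3, the defining factor of that lineage, had 25 and 54 counts in WT and 15 and 22 in KO. Summed genes of gamma delta T and NK cells (4 of 5 matched) were at 12.6 and 17.5 CPM in WT and 11.8 and 14.2 in KO. Members differed in direction. Klrb1c had 70 and 30 counts in WT groups 2 and 3 and 13 and 23 in KO. Ncr1 had 0 and 3 counts in WT and 28 and 20 in KO. With genotype edgeR called 0 of these 4. Summed genes of immature double-positive cells were at 2897 and 2397 CPM in WT and 2551 and 1788 in KO. Of these 5, 3 fell with genotype (Rag1, Rag2 and Ptcra), against 1.87% of all measured genes. The part of any of these in the Itgae difference was not tested. In bulk libraries, fewer cells of a type and less RNA per cell cannot be told apart.

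**Figure D2:**
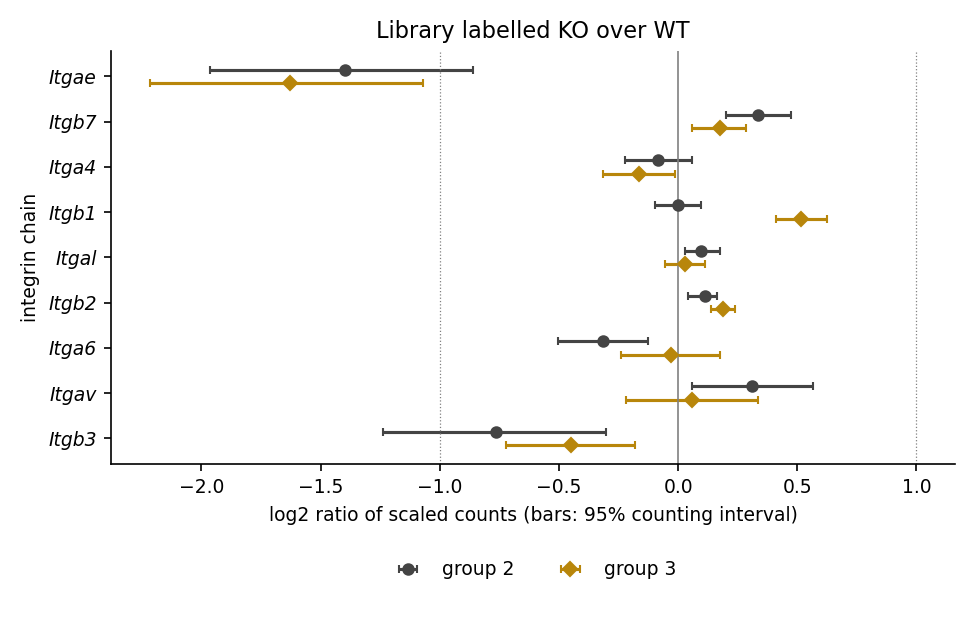
Log2 ratio of scaled counts, KO over WT, for each chain in group 2 (circles) and group 3 (diamonds), with 95% counting intervals and dotted lines at 2-fold. Itgae lies past 2-fold in both sorted groups, at ratios of 0.380 and 0.323.

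The beta partner of Itgae rose with stage and did not pass the test with genotype. It lies on the minus strand of chromosome 15, from 102215995 to 102231944 (ENSMUSG00000001281). Itgb7 had 82.0 CPM in WT group 2, 141 in WT group 3, 104 in KO group 2 and 158 in KO group 3, so both group 3 libraries lay above both group 2 libraries. From group 2 to group 3 its ratio was 1.71 in WT (1.57 to 1.87) and 1.53 in KO (1.41 to 1.66). Itgb7 rose with stage by 0.69 on the log2 scale (SE 0.16; edgeR, adjusted p 0.000664), higher in 2 of 2 pairs. KO over WT it stood at 1.26 in group 2 (1.15 to 1.39) and 1.13 in group 3 (1.04 to 1.22), a fitted fold of 0.25 (SE 0.15; edgeR, adjusted p 0.535). The RPKM of Itgb7 over that of Itgae was 18.0 in WT group 2, 29.1 in WT group 3, 60.0 in KO group 2 and 102 in KO group 3.

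Itga4, which shares Itgb7 with Itgae, passed the test in neither comparison. Its level was 95.1 and 86.0 CPM in WT groups 2 and 3 and 89.7 and 76.8 in KO. Group 3 over group 2 was 0.904 in WT (0.820 to 0.997) and 0.856 in KO (0.773 to 0.947), a fitted fold of -0.18 (SE 0.16; edgeR, adjusted p 0.872). KO over WT was 0.943 in group 2 (0.858 to 1.04) and 0.893 in group 3 (0.804 to 0.992), and did not pass the test. The RPKM of Itgb7 over that of Itga4 was 2.06 in WT and 2.76 in KO in group 2, and 3.90 and 4.92 in group 3. Itga4 overlaps Cerkl by 1124 exon bases on the opposite strand. Since the counting's strand setting is not given in the sources used here, reads there cannot be assigned. Cerkl had 18 to 39 counts per library and Itga4 701 to 998, and the part of the overlap in the Itga4 counts was not tested.

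Chains that rose with stage were 3 of 9 (2.21% of genes rose), namely Itgb7, Itgb2 and Itgb3, all beta chains. No chain fell with stage, where 1.14% of genes did (0 at an unadjusted p under 0.05, 0 with DESeq2). DESeq2 called the same 3 chains. By the 2-fold rule Itgb3 alone was higher in group 3, in WT and in KO alike. That rule found 5.22% of genes higher and 1.86% lower in WT, and 1.85% and 5.99% in KO. The stage calls of all 3 chains were lost without genotype in the model (edgeR, adjusted p 0.38 for Itgb7, 0.411 for Itgb2 and 0.229 for Itgb3) and with any 1 library left out (0.241 to 1), while each fitted fold stayed positive.

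Itgb3, on the plus strand of chromosome 11 from 104608000 to 104670476 (ENSMUSG00000020689), had the largest stage difference of the 9 chains. It had 11.3 CPM in WT group 2 and 30.5 in WT group 3, and 6.68 and 22.4 in KO, from 119, 249, 59 and 213 counts. Both group 3 libraries lay above both group 2 libraries, and within each sorted group the KO library lay below WT. The stage ratio was 2.69 in WT (2.16 to 3.38) and 3.35 in KO (2.50 to 4.55). Itgb3 rose with stage by 1.57 (log2, SE 0.25; edgeR, adjusted p 8.34e-08). KO over WT was 0.589 in group 2 (0.424 to 0.812) and 0.732 in group 3 (0.607 to 0.883), with a fitted fold of -0.59 (SE 0.25; edgeR, adjusted p 0.208) that did not pass.

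Platelets carry much Itgb3, with Itga2b as its partner. Their genes Pf4, Ppbp, Gp9, Gp1bb and Treml1 together had 0 counts in WT group 2, 10 in WT group 3, 7 in KO group 2 and 6 in KO group 3, and Itga2b had 3, 12, 19 and 4. The summed platelet level was at most 1.23 CPM in a library, with Gp1bb at 0 counts in all 4, and the part of platelets in the Itgb3 differences was not tested. Itgav, the other partner of Itgb3, had 24.5 and 24.7 CPM in WT groups 2 and 3 and 30.5 and 25.6 in KO. Its stage ratio was 1.01 in WT (0.833 to 1.22) and its fitted stage fold -0.12 (SE 0.22; edgeR, adjusted p 0.987). KO over WT, Itgav stood at 1.24 in group 2 (1.04 to 1.48) and 1.04 in group 3 (0.859 to 1.26). The RPKM of Itgb3 over that of Itgav was 0.219 and 0.586 in WT groups 2 and 3 and 0.104 and 0.413 in KO. With merged exon lengths these ratios became 0.843, 2.26, 0.399 and 1.59, so which of these chains is more abundant in group 3 depends on the length used.

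Itgb2, the beta chain of LFA-1, lies on the plus strand of chromosome 10, from 77530252 to 77565708 (ENSMUSG00000000290). It was at 459 and 650 CPM in WT groups 2 and 3 and at 495 and 739 in KO. Both group 3 libraries exceeded both group 2 libraries. Its stage ratios were 1.42 in WT (1.36 to 1.47) and 1.49 in KO (1.44 to 1.55). Itgb2 rose with stage by 0.54 (log2, SE 0.14; edgeR, adjusted p 0.00400). KO over WT was 1.08 in group 2 (1.03 to 1.12) and 1.14 in group 3 (1.10 to 1.18), and its fitted fold of 0.15 (SE 0.14; edgeR, adjusted p 0.775) did not pass.

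Itgal, the alpha chain of LFA-1, did not pass the test with stage. Its level was 287 and 267 CPM in WT groups 2 and 3 and 307 and 272 in KO. Its stage ratio was 0.930 in WT (0.880 to 0.983) and 0.885 in KO (0.839 to 0.935), with a fitted fold of -0.14 (SE 0.14; edgeR, adjusted p 0.922). The RPKM of Itgb2 over that of Itgal was 4.01 in WT and 4.03 in KO in group 2, and 6.10 and 6.80 in group 3. In LFA-1 and in the Itga4 and Itgb7 pair alike, the beta transcript rose with stage and the alpha transcript stood at 0.856 to 0.930 of its group 2 level.

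Itgb2 is also abundant in myeloid cells. Summed over 9 macrophage and dendritic cell genes, the level was 51.6 and 66.3 CPM in WT groups 2 and 3 and 83.6 and 100 in KO, and 6 neutrophil genes summed to 34.4 CPM in KO group 3 and to at most 1.33 in the other libraries. Itgam and Itgax, the alpha chains that pair with Itgb2 in myeloid cells, were at 5.15 to 5.57 and 0.245 to 1.05 CPM. Of the neutrophil counts in KO group 3, 204 came from Ngp, a granule protein gene with 2 to 6 counts elsewhere. Summed genes of B cells (55.4 to 77.2 CPM), thymic epithelium (27.1 to 33.6) and stroma and endothelium (107 to 125) differed less between libraries. The part of these cells in the Itgb2 and Itgb1 differences was not tested.

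**Figure D3:**
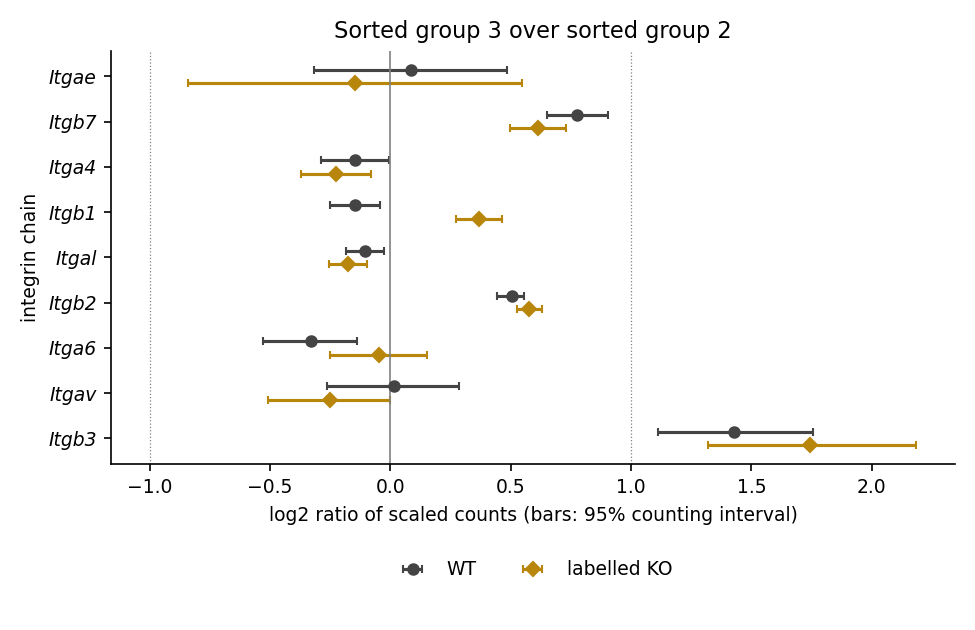
Log2 ratio of scaled counts, group 3 over group 2, for each chain in WT (circles) and KO (diamonds), with 95% counting intervals and dotted lines at 2-fold. Itgb3, Itgb7 and Itgb2 lie above 0 in both genotypes, and Itgb1 lies below 0 in WT and above it in KO.

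Itgb1, the chain shared by the laminin and fibronectin receptors, was highest in KO group 3. It had 171 and 155 CPM in WT groups 2 and 3 and 171 and 221 in KO. KO over WT was 1 in group 2 (0.936 to 1.07) and 1.43 in group 3 (1.33 to 1.54). The difference between these folds was 0.51 on the log2 scale (0.37 to 0.65, counting error only), the largest among the 9 chains to exclude 0. Neither the fitted genotype fold (0.26, SE 0.15; edgeR, adjusted p 0.485) nor the fitted stage fold (0.11, SE 0.15; edgeR, adjusted p 0.977) passed. The interval of that difference also excluded 0 for Itga6 (0.28, 0.01 to 0.56). How often it excludes 0 over all measured genes was not computed, so Itgb1 and Itga6 cannot be called unusual by it.

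Itga6, a laminin receptor chain, had 54.8 CPM in WT group 2 and 42.6 to 44.1 CPM in the other 3 libraries. KO over WT was 0.804 in group 2 (0.705 to 0.916) and 0.979 in group 3 (0.847 to 1.13). Its stage ratio was 0.795 in WT (0.694 to 0.909) and 0.968 in KO (0.840 to 1.11). Neither of its fitted folds passed, at -0.17 with genotype and -0.19 with stage (SE 0.19 each; edgeR, adjusted p 0.826 and 0.911).

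Set against its alpha partners, Itgb1 was also highest in KO group 3. The RPKM of Itgb1 over that of Itga4 was 3.26 in both WT libraries, 3.47 in KO group 2 and 5.23 in KO group 3. Over that of Itga6 it was 3.45 and 3.93 in WT groups 2 and 3 and 4.30 and 5.74 in KO. Over that of Itgav it was 8.31 and 7.46 in WT and 6.70 and 10.3 in KO. The size of every beta to alpha ratio depends on the lengths used, whereas its comparison between libraries does not. Per merged exon length, Itgb1 over Itga4 was 6.16, 6.16, 6.55 and 9.87 in WT groups 2 and 3 and KO groups 2 and 3, and Itgb7 over Itga4 was 4.35 in WT group 2 in place of 2.06.

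**Figure D4:**
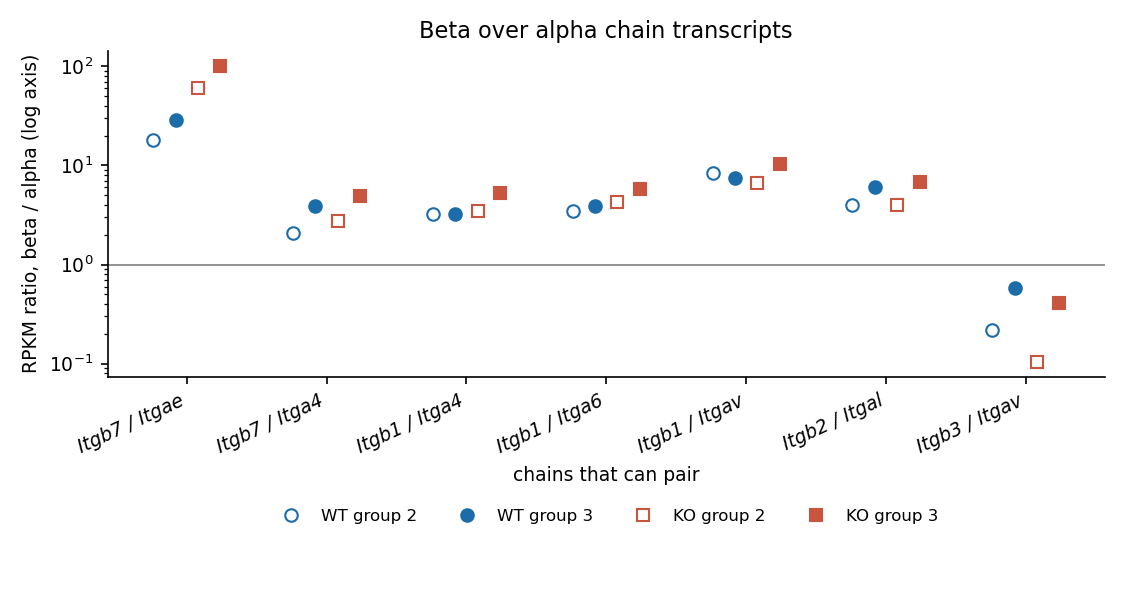
RPKM of a beta chain over that of an alpha chain it can pair with (log axis) in the 4 libraries, marked as in the plot of levels. The Itgb7 to Itgae ratio spans 18.0 to 102, and the ratios of Itgb7 to Itga4 and of Itgb2 to Itgal are higher in each group 3 library than in either group 2 library.

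The median log2 ratio of the 9 chains was near that of all measured genes in each comparison of libraries. KO over WT it was 0.00 in group 2 and 0.03 in group 3, against 0.00 and -0.01 over all genes. From group 2 to group 3 it was 0.01 in WT and -0.05 in KO, against 0.00 and -0.01. Among the 4 chains with a call, the genes most like each in scaled level over the 4 libraries were sought among 8320 named genes with 10 CPM in a library, by the distance between log2 patterns centred on their mean. Closest to Itgae were Parpbp (distance 0.23), the pre-T cell receptor chain gene Ptcra (0.27) and Tmem242 (0.28). Closest to Itgb3 were Samhd1, which degrades deoxynucleotides (0.19), Asb2 (0.21) and the chemokine receptor gene Ccr8 (0.31). Fmnl3, Galnt11 and Map3k3 lay within 0.05 of Itgb7, and Ap2a2, Entpd6 and Map2k1 within 0.06 of Itgb2. With 4 libraries, many genes share such a pattern. Itgb7 and Itgb2 lay 0.22 apart, whereas Itgae and Itgb7 lay 1.81 apart.

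Most of the other 17 integrin chains were rare. In each library 12 to 14 of them had fewer than 30 counts, and Itga5, a fibronectin receptor chain, was the most abundant at 14.2 and 16.4 CPM in WT groups 2 and 3 and 14.5 and 19.1 in KO. Of the 10 that were measured, edgeR called none with genotype or with stage (0 at an unadjusted p under 0.05 and 0 with DESeq2). Their median log2 ratio KO over WT was 0.63 in group 2 and 0.07 in group 3. From group 2 to group 3 it was 0.37 in WT and -0.83 in KO. Itga1, Itga2b, Itga11 and Itgb6 reached the 2 CPM filter in KO group 2 alone, and Itgb5 in WT group 2 alone. The filter thus favours high values in those libraries, and these medians depend on it in part. The libraries also differed in how many genes had any count, 20440 in WT group 2, 23325 in WT group 3, 23925 in KO group 2 and 20521 in KO group 3. The part of this in the ratios of rare chains was not tested. Itgb8, which activates TGF-beta when paired with Itgav, had 17, 22, 34 and 5 counts in the same order.

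Most genes in the list for integrin activation, which also holds genes that oppose it, did not pass the test. Of 22 measured genes of integrin activation, 1 rose and 0 fell with genotype, and the same 1 rose and 0 fell with stage (0 fell with DESeq2 in either; 1 and 0 were lower at an unadjusted p under 0.05). It was Sipa1, which switches RAP1 off, at 0.55 with genotype (SE 0.15; edgeR, adjusted p 0.0110, and 0.174 with DESeq2) and 0.66 with stage (SE 0.15). Tln1, which encodes talin, had 201 and 189 CPM in WT groups 2 and 3 and 210 and 204 in KO. Fermt3, the kindlin of blood cells, had 423 and 479 CPM in WT and 394 and 446 in KO. Median fitted folds of this list were 0.09 with genotype and 0.03 with stage, against 0.00 and -0.01 over all 12490 genes. Of all these genes 2.95% rose with genotype and 2.21% with stage.

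Of 20 measured adhesion signalling genes, 2 rose with genotype and 2 with stage, and 0 fell in either (0 at an unadjusted p under 0.05, 0 with DESeq2). Over all measured genes 2.95% rose and 1.87% fell with genotype, and 2.21% rose and 1.14% fell with stage. Fyn, a Src family kinase, rose with both, by 0.51 (SE 0.14) and 0.61 (SE 0.14). Zyx, which encodes the focal adhesion protein zyxin, rose with genotype by 0.57 (SE 0.15; edgeR, adjusted p 0.00592, and 0.056 with DESeq2). Evl, an actin regulator of the VASP family, rose with stage by 1.07 (SE 0.16; edgeR, adjusted p 2.18e-08). Median folds were 0.07 and -0.01.

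Of 13 measured integrin ligand genes, edgeR called 0 with genotype (0 at an unadjusted p under 0.05) and 0 with stage (1 higher and 3 lower at an unadjusted p under 0.05), and DESeq2 called 0 in each. Median folds were 0.40 and -0.11. Lama1, Lama3, Lamb1 and Jam2 reached the 2 CPM filter in KO group 2 alone, and Cdh1 in WT group 2 alone. These medians thus depend in part on the filter. Cdh1, which encodes E-cadherin, the ligand of the Itgae and Itgb7 pair, had 11 to 23 counts per library. Icam2, an LFA-1 ligand, had 249 and 204 CPM in WT groups 2 and 3 and 257 and 173 in KO. Icam1 had 27.6 and 40.7 CPM in WT and 24.5 and 32.8 in KO.

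A list of 18 genes held those of TGF-beta signalling and Runx factors and also Zbtb7b, which is neither. Of the 18, 1 rose and 1 fell with genotype. With stage, 4 rose and 0 fell (0 lower at an unadjusted p under 0.05, 0 with DESeq2). Over all measured genes 2.95% rose and 1.87% fell with genotype, and 2.21% rose with stage. At an unadjusted p under 0.05, 5 of the 18 were higher with genotype and 6 with stage. Smad7, at 0.81 with genotype (SE 0.27; edgeR, adjusted p 0.0512), did not pass. The receptor gene Tgfbr2 rose with genotype by 0.58 (SE 0.16; edgeR, adjusted p 0.0131) and with stage by 0.54 (SE 0.16). Tgfbr3, which encodes the coreceptor betaglycan, fell with genotype by 0.77 (SE 0.23; edgeR, adjusted p 0.0189) and rose with stage by 0.81 (SE 0.23). Both genotype calls were lost with DESeq2 (adjusted p 0.192 and 0.521). Zbtb7b, the factor of the CD4 lineage, rose with stage by 1.82 (SE 0.29), and Skil, a TGF-beta feedback gene, by 0.85 (SE 0.20). DESeq2 kept the stage call of Zbtb7b alone among the 4. It lost those of Tgfbr2, Tgfbr3 and Skil (DESeq2, adjusted p 0.307, 0.515 and 0.0979). Runx3, a factor of CD8 T cells, had 18.7 and 19.0 CPM in WT groups 2 and 3 and 23.3 and 37.9 in KO. Its fitted genotype fold of 0.66 (SE 0.22; edgeR, adjusted p 0.0627) did not pass. The part of Runx3 in the Itgae difference was not tested. The median fitted genotype fold of the list was 0.31 and its median stage fold 0.24.

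**Figure D5:**
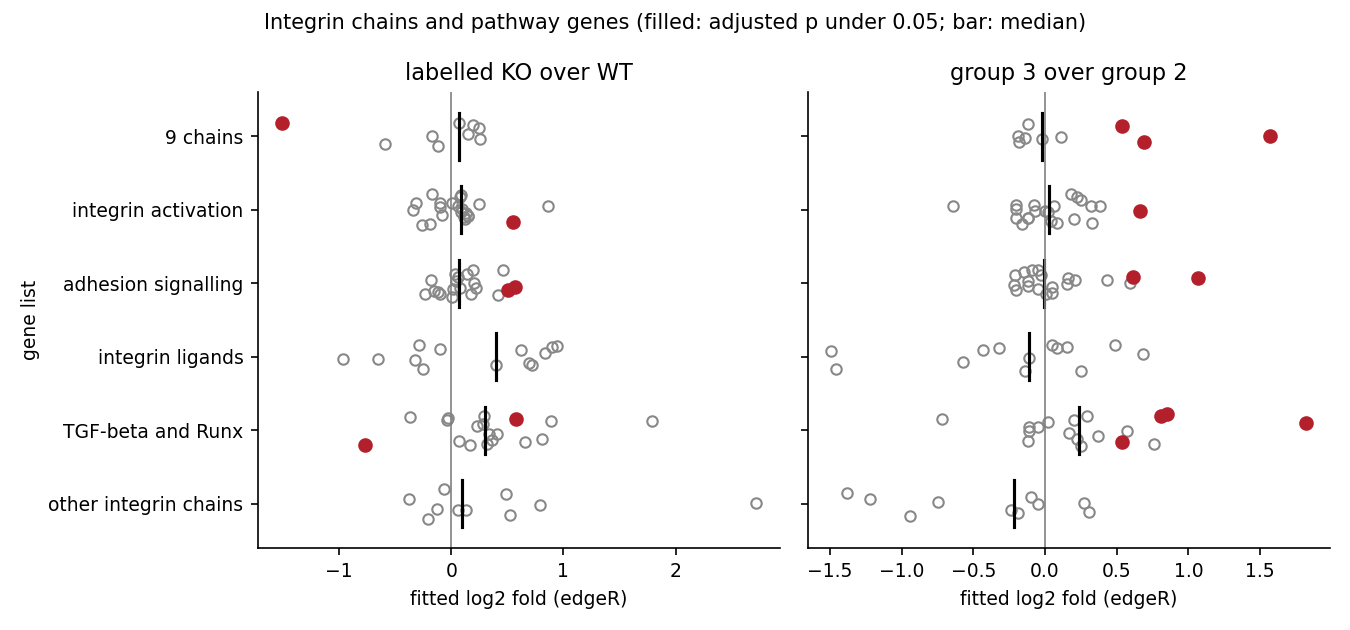
Fitted log2 folds of the 9 chains and of 5 gene lists with genotype (left) and stage (right), each point a measured gene, filled where the adjusted p was under 0.05, with bars at list medians. Itgae is the lowest filled point with genotype, and the filled chains with stage are Itgb2, Itgb7 and Itgb3.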

How the data were processed

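Thymocytes of 4 groups were sequenced, 1 library each. The authors deposited counts per Ensembl gene and RPKM per library; per the submitters' processing notes, TopHat2 2.0.12 and the mouse build mm10 were used. The counting program, strand setting and read layout are not given in the sources used here. The deposited RPKM and counts implied a whole gene length (within 0.01 bp) for 100% of values above 0. Of 35275 genes, 34490 matched GENCODE M21 symbols, and the others stayed in library totals (8043077 to 10299863 counts). Groups follow the sample titles.

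Genes with 2 CPM in at least 1 library (12490) were tested with edgeR 4.0.16 (R 4.3.3, TMM, quasi-likelihood, sorted group plus genotype, Benjamini-Hochberg adjustment over all of them, threshold 0.05); the common dispersion was 0.0288 and each gene's spread was shrunk fully to the trend. The fit was tested on counts simulated with its own estimated dispersion. That run cannot show whether this dispersion covers the spread between mice. The SE given with an edgeR fold is the absolute log2 fold divided by the square root of the test's F statistic. Like the p-values, it does not measure the spread between mice. Scaled CPM are TMM-scaled. Folds of 2 libraries are log2 ratios of CPM plus 0.5, with exact binomial (Clopper-Pearson) 95% intervals of the count ratio. The fold rule was 2-fold with an interval excluding 1. Medians of library comparisons use these log2 folds.

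The chains, gene lists and tests were chosen with earlier results of these data known. Named genes are the 9 chains and Uba3, up to 4 called genes per list and effect, genes overlapping a chain, and the 3 genes most like each called chain; other genes are named as group markers or to give the level of a list's known members. DESeq2 1.42.0 and limma 3.58.1 (voom) were alternatives.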

Additional observations from a re-analysis of the deposited data

Results flagged for a closer look

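Itgb1 differed between the sorted groups in opposite directions in WT and KO. From group 2 to group 3 its log2 fold was -0.14 in WT and 0.37 in KO, and the counting interval of each ratio excluded 1. Such intervals are common, lying below 1 for 24.1% of measured genes in WT and above 1 for 24.4% in KO. The Itgb1 difference was not tested, since each group held 1 library. Summed neutrophil genes were also highest in KO group 3 (34.4 CPM), and their part in the Itgb1 difference was not tested.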

How the results depend on the processing

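Of 9 chains, the 1 that fell with genotype became 0 with DESeq2, without sorted group in the model and with 1 library left out (0 to 0). The 3 that rose with stage became 0 without genotype in the model and with 1 library left out (0 to 0). A fit on 3 libraries has 1 factor in the model and 1 library at 1 of its levels, so the other factor enters its fold and its error. Without WT group 3, the genotype fold of Itgb3 sets WT group 2 (11.3 CPM) against KO groups 2 and 3 (6.68 and 22.4). The ranges over such fits, given below, thus mix genotype with stage. Lowering the threshold to 1.5-fold raised the chains lower in KO group 2 from 1 to 2, and those higher in group 3 from 1 to 2 in WT and from 1 to 2 in KO. No alternative normalization, filter or pseudocount changed a count of chains. The fitted folds that changed sign were all of effects without a call, though Itgae, Itgb7, Itgb2 and Itgb3 each have a call for the other effect. Over the fits with 1 library left out, the genotype fold ranged from -0.10 (without WT group 2 or KO group 3) to 0.68 for Itgb7, from -0.16 (without KO group 3; -0.08 without WT group 2) to 0.43 for Itgb2, from -0.02 (without KO group 2) to 0.15 for Itgal, and from -1.64 to 0.36 for Itgb3 (0.36 without WT group 3, 0.11 without KO group 2). The stage fold ranged from -1.01 to 0.88 for Itgae (0.88 without WT group 2, 0.61 without KO group 3), from -0.15 (without KO group 3) to 0.37 for Itgb1, and from -0.28 to 0.04 (without KO group 2) for Itgav. That of Itgae was also 0.01 without genotype in the model and 0.03 with limma-voom. Levels per merged exon length, an alternative chosen after seeing the data, lowered all 36 values. No paired analysis was possible because the labels give no replicate numbers and each group held 1 library, beyond the sorted group and genotype terms that the model already holds. At 37 to 119 counts, Itgae had the widest counting intervals of the 9 chains.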
